A study of Mus musculus with 34 samples.

Results

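The genes described here flank the 7qF3 interval of mouse chromosome 7, the region of conserved gene order with human 16p11.2. They were chosen by position alone, as the genes in the authors' deposited comparison table whose start lies at chr7:131800000-133800000 (the proximal flank) or chr7:134400000-136400000 (the distal flank) in the mouse build mm9. This gave 83 of the 17851 genes in that table, 22 of them proximal and 61 distal, and all 83 are among the 29876 gene entries with counts; 81 passed the low-count filter in at least 1 genotype comparison, and 46 overlap another gene of the table. The 34 genes that start between the flanks serve as the yardstick, because 30 of them, from Giyd1 to Sept1, lie across the segment whose copy number was altered.

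RNA was sequenced from mouse cells of 3 genotypes at 3 stages: embryonic stem cells (ESCs) in serum and LIF, neural progenitor cells (NPCs) of the ventral midbrain lineage at day 5, and immature dopaminergic neurons at day 16. Both later stages were reached through an epiblast stem cell step. Control cells carried 129Sv +/+, deletion cells 129Sv df/+ (heterozygous for a deletion of 7qF3) and duplication-deletion cells 129Sv df/dp (a deleted and a duplicated chromosome, which together hold the control number of copies). All groups share the background strain C57BL/6N by their labels. There were 3 libraries of each genotype in ESCs. NPCs had 5 control, 3 deletion and 3 duplication-deletion libraries, and neurons had 4, 2 and 2. All lines came from 1 laboratory, and the sources used here do not say how many clones stand behind a genotype or whether replicates were separate cultures, so the p-values measure the spread between these libraries, which may be technical.

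A loss or gain of a chromosome segment changes the dose of the genes inside it. It also joins sequences that were apart, and can bring the neighbouring genes next to other enhancers, boundaries or chromatin; a change of expression outside the segment is called a position effect. The flanks of 7qF3 hold a cluster of KRAB-type zinc finger genes (sequence-specific repressors), chromatin regulators such as Srcap and Setd1a, RNA-binding proteins such as Atxn2l, metabolic enzymes, membrane traffic genes and leukocyte genes.

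Depth ran from 5578151 to 78814037 expected counts per library. The shallow libraries were replicate 3 of each ESC group and replicate 5 of each NPC group, at 5578151 to 24053970. Values are counts scaled to library size (CPM, the usual per-million unit) after TMM scaling over all 28 libraries, and fold changes are log2 values with their standard error (SE) from edgeR's quasi-likelihood test, fitted over all genes of a stage and adjusted by Benjamini-Hochberg at 0.05. In bulk RNA, fewer cells of a type and less RNA per cell cannot be told apart. NPC and neuron libraries also held mesenchyme marker RNA, with 5 collagen and matrix genes summing to 66.2 to 546 CPM in NPCs and 725 to 2154 CPM in neurons.

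Did the flanking genes follow the copy number of the interval? In deletion ESCs the flanking genes stayed near the control level as a group, while the genes of the interval stood near -1, the value of a dose of 1 copy in place of both. The median log2 fold change of deletion over control was -0.06 over the 19 proximal and -0.05 over the 56 distal genes tested, beside -1.21 over the 28 tested genes from Giyd1 to Sept1 and -0.02 over all 16470 genes. Of 75 flanking genes tested, 0 passed edgeR's adjusted p, as did 0.0% of all genes (0 of 16470). At an unadjusted p under 0.05 the flanks also gave 0 genes, against 1.26% of all genes, whereas 16 of the 28 interval genes were lower. DESeq2 called 0.0425% of all genes and 0 flanking genes. Libraries of the groups did not overlap for 4 flanking genes (5.33%, all lower in deletion), beside 6.9% of all genes.

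Replicate numbers appeared to pair the ESC libraries, and the fit with the number as a block was tighter. It called 0 flanking genes in deletion ESCs and 8 of the 28 genes from Giyd1 to Sept1, beside 0.0546% of all genes, with the flanks' median at -0.06. At an unadjusted p under 0.05 it gave 15 of 75 flanking genes (20%, 10 lower and 5 higher), beside 11.2% of all genes and 19 of the 28 interval genes. None of the 15 passed the adjusted p. Those with the smallest p-values, chosen after their values were seen, were Srcap, Dctpp1 and Nsmce1. Srcap, a chromatin remodeller 256 kb from the distal edge that overlaps other entries, measured 39.0, 23.5 and 19.1 CPM in control and 67.0, 35.0 and 35.4 CPM in deletion ESCs of replicates 1, 2 and 3. It was higher in deletion within each pair, though the groups overlapped, at 0.80 ± 0.19 (edgeR with the block, adjusted p = 0.259). Dctpp1 stood at -0.51 ± 0.14 and Nsmce1 at -0.55 ± 0.16 in that fit (edgeR adjusted p = 0.279 and 0.286). In the blocked fit the duplication-deletion ESCs gave 1 flanking gene at an unadjusted p under 0.05 (1.33%, beside 4.3% of all genes), and deletion against duplication-deletion 5 (6.67%, beside 6.38%).

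In deletion NPCs the median was 0.11 over 21 proximal and 0.07 over 56 distal genes, beside -0.70 from Giyd1 to Sept1 and 0.04 over all genes. Of 77 flanking genes tested, edgeR called 0, beside 0.00596% of all genes, and 3 (3.9%) had an unadjusted p under 0.05, beside 3.56% of all genes. DESeq2 called 1 of them, 9130019O22Rik, beside 0.554% of all genes. The authors' deposited table lists 2 flanking genes as lower in deletion NPCs at its adjusted p, 9130019O22Rik and Tgfb1i1, beside 0.844% of the genes it lists for that comparison. Libraries did not overlap for 4 flanking genes, 2 higher and 2 lower in deletion (5.19%), beside 3.12% of all genes.

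In deletion neurons the median was 0.02 over 20 proximal and -0.17 over 57 distal genes, beside -0.95 from Giyd1 to Sept1 and -0.03 over all genes. Of the distal genes, 42 of 57 had a negative value, and 32 of 57, with a median of -0.08, in the fit with the replicate number as a block. The 2 deletion libraries differed: the median over all flanking genes was -0.15, and became -0.50 without deletion replicate 3 and 0.12 without deletion replicate 1. EdgeR called 0 of 77 flanking genes beside 0.0% of all genes, 1 had an unadjusted p under 0.05 (1.3%, beside 3.63% of all genes), and DESeq2 called 0, beside 0.346% of all genes. Libraries did not overlap for 5 flanking genes (6.49%), beside 9.93% of all genes. The 2 deletion neuron libraries also lay below the controls in several marker lists. Endothelium markers, scarce in both groups, summed to 3.406 and 4.229 CPM against 4.505 to 17.7 CPM in control. Neural crest markers, scarcer still, summed to 0.2664 and 0.3785 CPM against 0.4519 to 1.373 CPM. Dopaminergic markers summed to 149.5 and 163.9 CPM against 236.9 to 474.1 CPM in control, and astrocyte markers to 98.2 and 106.4 CPM against 146.5 to 264.8 CPM. Duplication-deletion neurons were as low in astrocyte markers (91.7 and 110.0 CPM) but not in dopaminergic markers (356.5 and 931.4 CPM). Nor were they low in endothelium (25.71 and 46.95 CPM) or neural crest markers (0.931 and 2.184 CPM). The part of cell composition in the flanks' values was not tested.

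**Figure D1:**
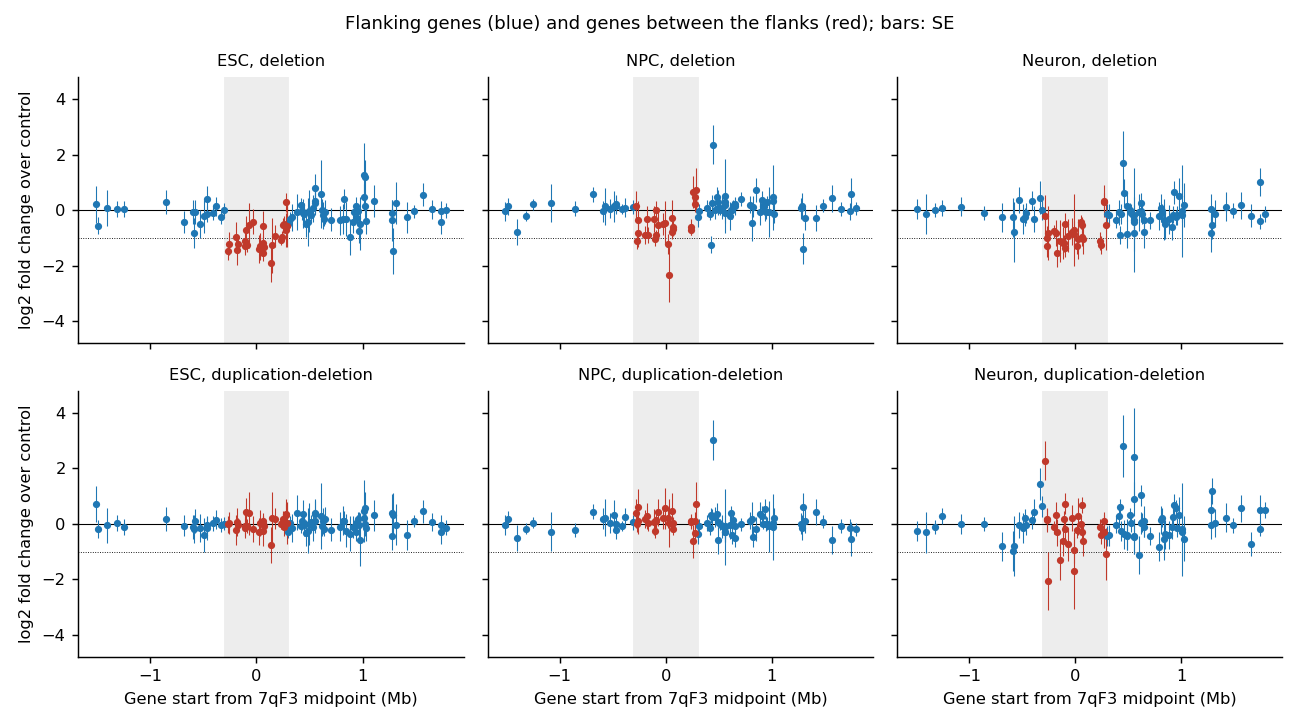
Log2 fold change over control (vertical, bars SE) of each gene with a mean CPM of at least 1 in the stage against the position of its start, in Mb from the midpoint between the flanks. Blue points are flanking genes, red points genes between the flanks (shaded), and the dotted line marks a halving; in the 3 deletion panels the red points lie mostly near the dotted line and the blue points scatter around 0.

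The same is seen library by library. For each library, the median flanking gene of at least 5 CPM was expressed as a percent of the mean of the control libraries of its stage. In ESCs the 3 control libraries lay between 80.4% and 113.7% and the deletion libraries between 79.8% and 91.5%. In NPCs the 5 control libraries lay between 83.7% and 109.2%, the deletion libraries between 96.3% and 113.2%. Deletion neurons lay at 69.7% and 103.5%, control neurons between 80.3% and 106.9%. The flanks of deletion and control libraries thus overlapped at every stage. Over the genes from Giyd1 to Sept1 the deletion libraries were at 40.6% to 47.1% in ESCs, 49.2% to 72.9% in NPCs and 41.6% and 54.6% in neurons, below each control library of their stage, which ran from 82.5% to 118.7%.

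**Figure D2:**
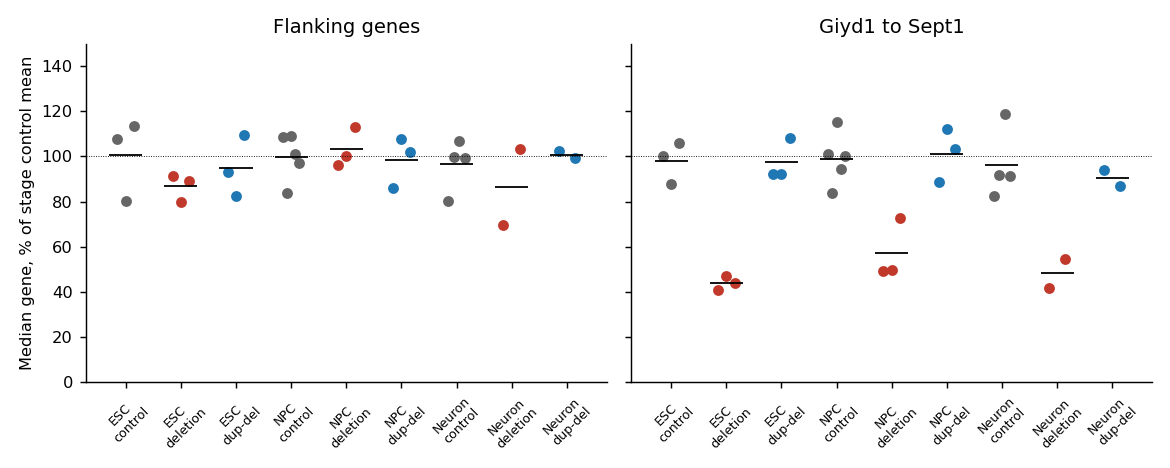
Median over genes of CPM as a percent of the mean control library of the stage, for the flanking genes (left) and the genes from Giyd1 to Sept1 (right); points are libraries and lines are group means. On the right the deletion libraries lie between 40.6% and 72.9%; on the left all libraries lie between 69.7% and 113.7%.

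The genes nearest the interval were read one by one, since an edge need not fall where the rule puts it. Ccdc101, a subunit of the SAGA histone acetyltransferase complex and the last proximal gene (chr7:133792823-133816293), measured 13.6, 10.8 and 13.4 CPM in control ESCs and 14.2, 9.21 and 13.5 CPM in deletion ESCs, which overlap. Its log2 fold change in deletion was 0.02 ± 0.25 in ESCs, 0.11 ± 0.26 in NPCs and 0.02 ± 0.38 in neurons. Past Sult1a1, which starts at the end of Ccdc101, Giyd1 (chr7:133832441-133839297) stood at -1.48 ± 0.32, -1.11 ± 0.30 and -1.28 ± 0.40. Toward the distal edge, Cd2bp2 and Tbc1d10b stood at -1.06 ± 0.20 and -0.96 ± 0.22 in deletion ESCs, and the next genes outward, Mylpf and Sept1, at -0.55 ± 0.28 and -0.52 ± 0.31. Beyond them Gm4532 stood at -0.71 ± 0.61, Zfp553, whose entry runs far into the distal flank, at 0.28 ± 0.34 and Zfp771 at -0.56 ± 0.79. In deletion NPCs Mylpf and Sept1 stood at 1.07 ± 0.72 and 0.64 ± 0.58, but both were scarce there. Mylpf reached at most 0.656 CPM and Sept1 at most 2.64 CPM in control and deletion NPCs. Control ESCs held at least 11.3 and 31.0 CPM of them. The NPC values therefore do not bear on where the edge lies. Dctpp1, a pyrophosphatase that clears modified dCTP and the first distal gene (chr7:134400476-134404181), measured 63.5, 76.2 and 71.5 CPM in control ESCs, 47.4, 57.2 and 37.0 CPM in deletion ESCs and 45.9, 64.4 and 62.0 CPM in duplication-deletion ESCs. All 3 deletion libraries were below all 3 controls, and the duplication-deletion libraries overlapped with the controls and the deletions. Its difference of -0.52 ± 0.23 in deletion ESCs did not pass (edgeR adjusted p = 1.00), and it was -0.26 ± 0.35 in NPCs and -0.16 ± 0.36 in neurons. Its neighbour Sephs2, a selenophosphate synthetase, gave -0.33 ± 0.26, -0.04 ± 0.24 and -0.17 ± 0.37. On the proximal side Eif3c, a subunit of translation initiation factor 3 and the most abundant flanking gene in CPM, gave -0.09 ± 0.26, 0.03 ± 0.19 and 0.34 ± 0.34, and Cln3, a lysosomal membrane protein, 0.14 ± 0.35, 0.09 ± 0.35 and -0.31 ± 0.47.

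Medians by distance followed no single order, and no test of them was made. In deletion ESCs the median over distal genes was -0.06 under 0.5 Mb from the rule's edge (27 genes), -0.10 from 0.5 to 1 Mb (21 genes) and -0.03 from 1 to 2 Mb (8 genes). In deletion NPCs the same bins gave 0.07, 0.02 and 0.06, and in deletion neurons -0.20, -0.18 and -0.07. The proximal bins hold 12, 3 and 4 tested genes in ESCs, with medians of -0.12, 0.30 and 0.06. The 1200 genes tested on the whole of chromosome 7 had a median of -0.09 in deletion ESCs.

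How much could have been missed differed by stage. Without the block, edgeR called 0 genes on the whole of chromosome 7, interval included, in deletion over control at each stage. In simulated data, only genes above a cut on expected counts were changed. Of changes with a log2 of 1 there, edgeR recovered 1%, 7% and 0% in ESCs, NPCs and neurons. Its 0 calls in the flanks therefore do not by themselves exclude a halving. The median SE of a flanking gene in the deletion comparison was 0.46 in ESCs, 0.36 in NPCs and 0.50 in neurons. The 95% interval of the log2 fold change excluded a halving for 33 of 75 genes in ESCs, 53 of 77 in NPCs and 31 of 77 in neurons. It lay wholly within a doubling and a halving for 22, 40 and 21 of them. With the replicate block the ESC median SE was 0.30, with 48 genes whose interval excluded a halving and 39 within both bounds. For the remaining genes the interval still held a halving, a doubling or both.

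With a duplicated and a deleted chromosome, the flanks stood at control level. The median over flanking genes was -0.03 in ESCs, -0.03 in NPCs and -0.01 in neurons, beside 0.00, 0.01 and -0.05 over all genes. EdgeR called 0 flanking genes at each stage, beside 0.0%, 0.0119% and 0.039% of all genes. Unadjusted, 0 of 75, 2 of 77 and 4 of 77 had p under 0.05 (0.0%, 2.6% and 5.19%), beside 0.31%, 2.66% and 7.22% of all genes. DESeq2 called 0, 1 and 0, beside 0.0243%, 0.292% and 0.87% of all genes; the 1 is Zfp764 in NPCs, which is also the 1 flanking gene that the authors' deposited table lists as changed in this genotype (0.37% of the genes listed there). Duplication-deletion libraries did not overlap with controls for 0 (0.0%), 3 (3.9%) and 20 (26.0%) flanking genes, beside 2.63%, 2.34% and 19.0% of all genes.

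Deletion set directly against duplication-deletion compares 1 with 2 copies of the interval. The median over flanking genes was -0.04 in ESCs, 0.09 in NPCs and -0.07 in neurons. EdgeR called 0 of 75, 77 and 77, beside 0.0%, 0.0238% and 0.0335% of all genes, and unadjusted 0, 3 and 3 (0.0%, 3.9% and 3.9%), beside 0.996%, 4.01% and 8.85%. DESeq2 called 0, 1 and 1, beside 0.109%, 0.608% and 1.35% of all genes, and both calls were 9130019O22Rik. Libraries did not overlap for 5 (6.67%), 6 (7.79%) and 22 (28.6%) flanking genes, beside 4.88%, 6.72% and 39.8% of all genes. With the replicate number as a block, edgeR called 0 flanking genes in all 9 genotype comparisons. That fit also called 0 of the 28 genes from Giyd1 to Sept1 in deletion NPCs and neurons, against control or duplication-deletion. At those 2 stages a lack of calls therefore does not exclude a halving. For deletion over control, duplication-deletion over control and deletion against duplication-deletion, the blocked fit called 0.0546%, 0.0425% and 0.0789% of all genes in ESCs, 0.0655%, 0.0119% and 0.0119% in NPCs, and 0.0725%, 0.223% and 0.117% in neurons.

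DESeq2's calls all fell in 1 short stretch of the distal flank. Zfp747, 9130019O22Rik, E430018J23Rik and Zfp764 lie in a row at chr7:134516051-134550336 and belong to the zinc finger genes of the flank; the entry Zfp553, which starts inside the interval, spans all of them. 9130019O22Rik and Zfp764 start 126 and 147 kb from the distal edge, and Zfp747 and E430018J23Rik beside and between them were chosen after their values were seen. These genes were compared only in the sequence before their starts, and E430018J23Rik was not included. The 250 bases before the start of 3 of them, from RefSeq on GRCm38.p6 (chromosome 7, minus strand, chr7:127376051-127376300 for Zfp747, chr7:127387167-127387416 for 9130019O22Rik and chr7:127406823-127407072 for Zfp764), are shown because these neighbours share most of this sequence, while 9130019O22Rik was lower and Zfp764 higher than control in deletion NPCs; CG pairs are in capitals.
Zfp747: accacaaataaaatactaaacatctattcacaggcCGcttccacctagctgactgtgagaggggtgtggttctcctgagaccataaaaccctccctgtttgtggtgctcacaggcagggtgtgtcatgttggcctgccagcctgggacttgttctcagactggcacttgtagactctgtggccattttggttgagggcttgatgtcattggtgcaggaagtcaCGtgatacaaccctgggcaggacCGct
9130019O22Rik: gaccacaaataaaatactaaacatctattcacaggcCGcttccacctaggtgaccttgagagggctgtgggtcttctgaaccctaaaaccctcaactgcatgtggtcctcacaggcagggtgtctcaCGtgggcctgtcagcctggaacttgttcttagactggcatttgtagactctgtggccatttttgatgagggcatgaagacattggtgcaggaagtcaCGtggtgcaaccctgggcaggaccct
Zfp764: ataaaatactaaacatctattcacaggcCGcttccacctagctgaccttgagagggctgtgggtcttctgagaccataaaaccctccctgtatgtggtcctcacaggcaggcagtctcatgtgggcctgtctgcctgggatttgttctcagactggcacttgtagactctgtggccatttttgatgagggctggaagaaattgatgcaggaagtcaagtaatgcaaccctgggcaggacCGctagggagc
In pairwise alignments Zfp747 and 9130019O22Rik shared 223 of 248 bases (89.9%), Zfp747 and Zfp764 219 of 243 (90.1%), and 9130019O22Rik and Zfp764 222 of 241 (92.1%). They hold 3, 3 and 2 CG pairs. Of 32851 RefSeq promoters of this length, 37.8% hold 3 CG pairs or fewer and 29.0% hold 2 or fewer, with a median of 6.0. Exon sequences were not compared here. Where such neighbours share near-identical exons, the counting can split reads between them, which would make a value of any single member uncertain.

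9130019O22Rik stood at 41.7% of the control mean in deletion NPCs and 52.8% in deletion neurons. In ESCs it measured 6.92, 7.05 and 4.17 CPM in control, 6.13, 6.17 and 4.68 CPM in deletion and 6.63, 6.84 and 5.75 CPM in duplication-deletion libraries, and the 3 genotypes overlapped. In NPCs it measured 6.28, 10.0, 9.07, 8.82 and 7.33 CPM in control, 4.16, 4.02 and 2.22 CPM in deletion and 9.48, 9.91 and 11.3 CPM in duplication-deletion libraries. All 3 deletion libraries lay below every other NPC library, while control and duplication-deletion overlapped. In neurons it measured 8.85, 6.88, 6.85 and 6.53 CPM in control, 4.18 and 3.50 CPM in deletion and 11.7 and 10.5 CPM in duplication-deletion libraries, and there the 3 genotypes were apart, with deletion lowest and duplication-deletion highest.

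The log2 fold change of deletion over control for 9130019O22Rik was -0.04 ± 0.33 in ESCs, -1.24 ± 0.30 in NPCs (95% interval -1.88 to -0.60) and -0.91 ± 0.33 in neurons. In NPCs edgeR's unadjusted p was 0.00109 and its adjusted p 0.417, whereas DESeq2 gave an adjusted p of 0.0073 and the authors' deposited table -1.25 with an adjusted p of 0.0254, so the call depends on the test. Against duplication-deletion the deletion value was -1.54 ± 0.32 in NPCs (edgeR adjusted p = 0.292, DESeq2 adjusted p = 0.000887) and -1.50 ± 0.37 in neurons (edgeR adjusted p = 0.457, DESeq2 adjusted p = 0.00907). Leaving out single libraries moved the NPC value against control between -1.40 and -1.02. The value in NPCs minus that in ESCs was -1.17 ± 0.41 (edgeR adjusted p = 1.00), so the difference between stages did not pass. Duplication-deletion stood at 0.30 ± 0.28 in NPCs and 0.59 ± 0.31 in neurons.

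For Zfp764 the control group was the lowest in NPCs and neurons. In ESCs it measured 7.13, 7.37 and 3.17 CPM in control, 5.87, 5.56 and 4.12 CPM in deletion and 5.49, 6.35 and 5.23 CPM in duplication-deletion libraries, all overlapping. In NPCs the controls measured 0.706, 2.27, 0.298, 0.315 and 0.0772 CPM, deletion 3.48, 4.20 and 3.71 CPM and duplication-deletion 5.58, 5.58 and 7.03 CPM. The 3 genotypes were apart, control lowest and duplication-deletion highest. In neurons the controls measured 1.57, 2.16, 0.0352 and 0.120 CPM, deletion 3.01 and 3.28 CPM and duplication-deletion 6.68 and 7.05 CPM, again in that order without overlap. Control libraries were uneven: they held 2 to 131 counts of Zfp764 each in NPCs and 2 to 106 in neurons.

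Seen against ESCs of the same genotype, Zfp764 in NPCs stood at 12.5% in control, 73.3% in deletion and 107% in duplication-deletion cells, and in neurons at 16.5%, 60.7% and 121%. In control cells the drop from ESC to NPC was -3.01 ± 1.09 and passed edgeR's adjusted p (0.0391), but not without ESC control replicate 1 or 2 or NPC control replicate 1, 3, 4 or 5, each left out alone (-2.99 to -2.73, edgeR adjusted p 0.0675 to 0.0935). The log2 fold change over control in NPCs was 2.36 ± 0.71 for deletion (edgeR adjusted p = 0.784) and 3.02 ± 0.72 for duplication-deletion (edgeR adjusted p = 0.617). For the latter DESeq2 gave 3.04 with an adjusted p of 0.011. The authors' deposited table gives it as 3.05 with an adjusted p of 0.0475. In neurons the values were 1.71 ± 1.12 and 2.81 ± 1.12 (edgeR adjusted p = 1.0 and 0.681). Leaving out single libraries kept the NPC duplication-deletion value between 2.75 and 4.05. The value in NPCs minus that in ESCs was 3.07 for duplication-deletion (95% interval 0.56 to 5.59, edgeR adjusted p = 1.00).

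The genes beside them stood closer to control. Zfp747 stood at -0.13 ± 0.24 in deletion and -0.15 ± 0.24 in duplication-deletion NPCs, with 10.5 ± 2.18 CPM in control (SD, n = 5) and 9.53 ± 0.84 CPM in deletion (SD, n = 3). E430018J23Rik, which lies between 9130019O22Rik and Zfp764, stood at 0.24 ± 0.30 and 0.23 ± 0.30 in NPCs and at -0.13 ± 0.36 and -0.25 ± 0.36 in neurons, where its duplication-deletion libraries (3.76 and 3.96 CPM) lay below the controls (4.32 to 4.69 CPM). Their 95% intervals in deletion NPCs were -0.65 to 0.39 and -0.42 to 0.90. Of the 10 zinc finger genes in the flanks, 9 had a negative value in deletion ESCs, 2 in deletion NPCs and 7 in deletion neurons, with medians of -0.10, 0.19 and -0.15. None of the 10 passed edgeR's adjusted p in a genotype comparison.

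**Figure D3:**
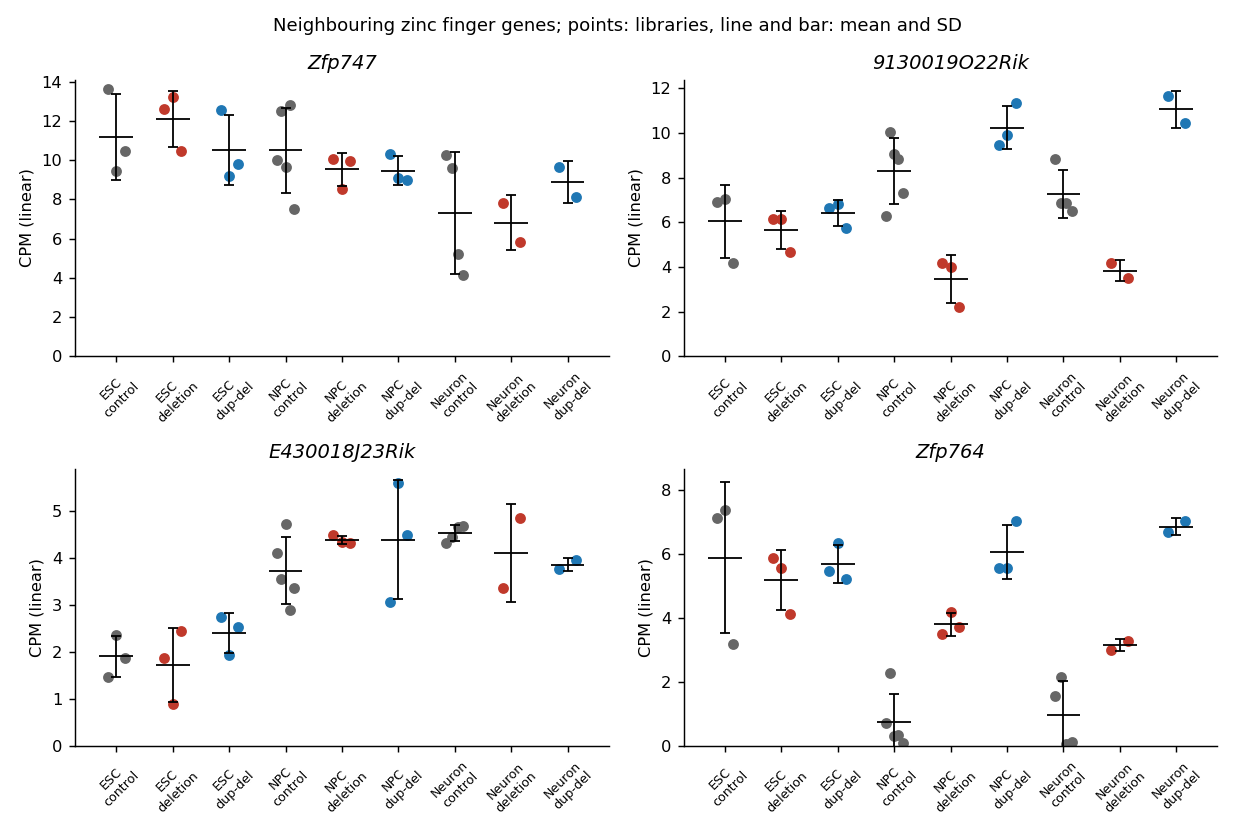
CPM (linear axis) of 4 neighbouring zinc finger genes in each library of the 9 groups; points are libraries, lines and bars the mean and SD. 9130019O22Rik is low in deletion NPCs and neurons, and Zfp764 is low in control NPCs and neurons, while the libraries of Zfp747 overlap between genotypes at each stage.

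Tgfb1i1 (Hic-5), a focal adhesion protein and coactivator typical of smooth muscle and mesenchymal cells, lies 990 kb from the distal edge at chr7:135390385-135397226. In NPCs it measured 8.22, 17.7, 11.8, 10.6 and 19.2 CPM in control, 4.50, 6.88 and 3.79 CPM in deletion and 6.03, 12.0 and 44.4 CPM in duplication-deletion libraries. The deletion libraries lay below all controls, and duplication-deletion libraries overlapped both. In neurons it measured 7.93, 22.9, 7.20 and 8.83 CPM in control, 8.47 and 7.53 CPM in deletion and 23.2 and 30.7 CPM in duplication-deletion libraries, so that only duplication-deletion stood apart. In ESCs it measured 2.61, 0.962 and 1.48 CPM in control and 1.19, 0.101 and 0.374 CPM in deletion libraries, which overlap.

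Deletion over control was -1.40 ± 0.56 for Tgfb1i1 in NPCs (edgeR adjusted p = 1.0; DESeq2 adjusted p = 0.437), while the authors' deposited table gives -1.41 with an adjusted p of 0.0233. Against duplication-deletion it was -2.01 ± 0.61 in NPCs (edgeR adjusted p = 0.736) and became -0.68 without the shallow NPC libraries, 1 of which is the duplication-deletion library of 44.4 CPM. Mesenchyme markers were also lower in deletion NPCs, with overlap with the controls: the sum of the 5 (Col1a1, Col1a2, Col3a1, Lum, Dcn) was 163 to 546 CPM in control, 66.2 to 197 CPM in deletion and 356 to 512 CPM in duplication-deletion libraries. Muscle markers (Myod1, Myog, Des, Acta1, Myh3), a list not made for smooth muscle, summed to 2.24 to 14.4 CPM, 0.673 to 2.21 CPM and 3.18 to 27.7 CPM in the same groups. Myod1 was at 0 counts in control and deletion. In neurons the mesenchyme sums overlapped between control (725 to 2102 CPM), deletion (1156 to 1561 CPM) and duplication-deletion (1156 to 2154 CPM), while the muscle sums were at most 2.71 CPM in control, at most 2.55 CPM in deletion and 3.37 to 16.0 CPM in duplication-deletion, and endothelium markers summed to at most 17.7, at most 4.23 and 25.7 to 46.9 CPM. In neurons both muscle and endothelium sums were highest in the genotype with the most Tgfb1i1. Endothelium sums in NPCs overlapped, at most 12.6 CPM in control, 12.4 CPM in deletion and 11.3 CPM in duplication-deletion. Control ESCs held at most 2.61 CPM of Tgfb1i1, with higher sums of 19.4 to 62.5 CPM for muscle and 73.15 to 133.9 CPM for endothelium. Whether the marker sums stand for such cells, in ESCs or later, was not tested. Nor was the part of such cells in the Tgfb1i1 values.

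**Figure D4:**
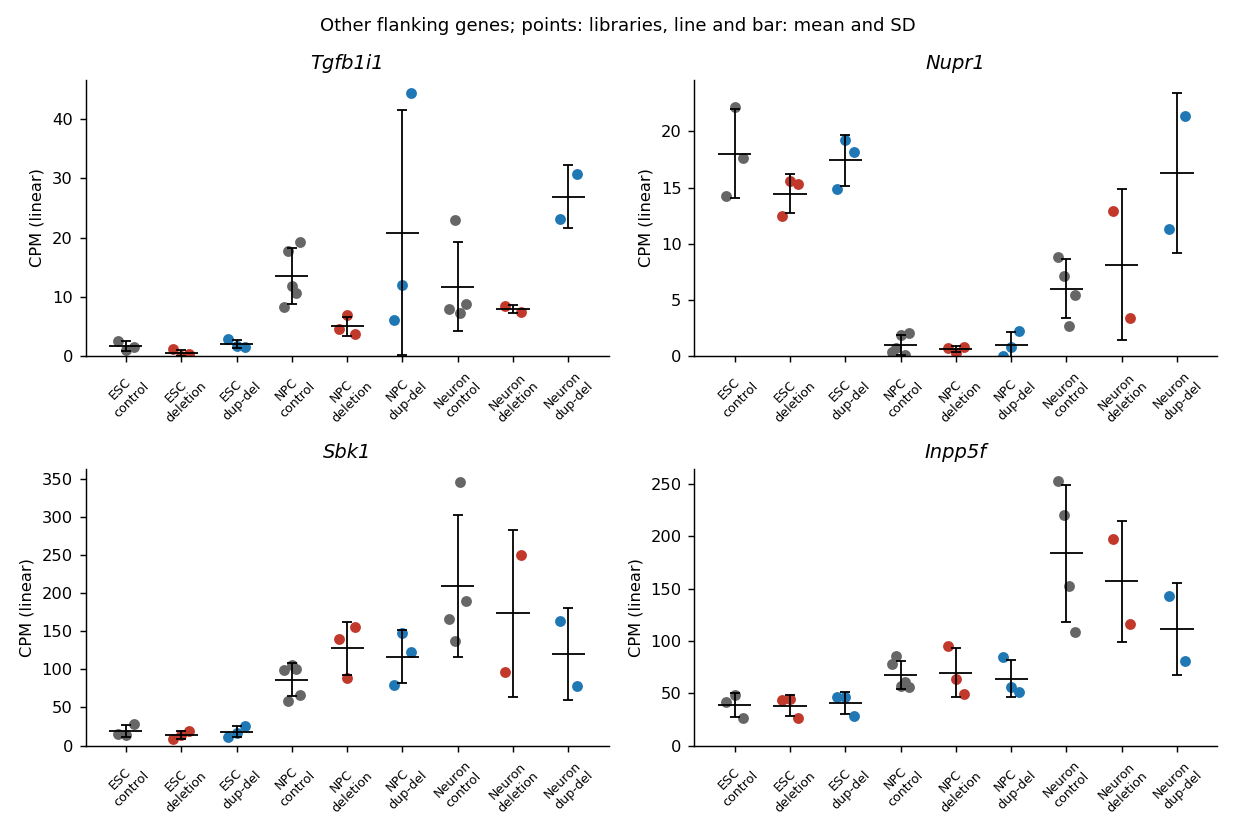
CPM (linear axis) of Tgfb1i1, Nupr1, Sbk1 and Inpp5f in each library of the 9 groups; points are libraries, lines and bars the mean and SD. Tgfb1i1 spreads most in duplication-deletion NPCs (6.03 to 44.4 CPM), and control libraries of Inpp5f lie at 56.1 to 85.9 CPM in NPCs and 109 to 253 CPM in neurons.

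Chromatin, transcription and RNA factors were the largest role group, with 20 members once Ctf2, a cytokine placed in that list by mistake, is left out. Their median in deletion was -0.04 in ESCs, 0.12 in NPCs and -0.11 in neurons, and 0 passed edgeR's adjusted p. Atxn2l, an RNA-binding protein of stress granules, ranged from 14.7 to 33.3 CPM in control and 31.4 to 35.0 CPM in deletion NPCs, which overlap. The DNA repair gene Nsmce1 stood lower in deletion ESCs at -0.56 ± 0.32, and its libraries of 8.32, 13.7 and 11.6 CPM overlapped with the controls of 12.3, 19.4 and 20.1 CPM. Nupr1, a stress-induced chromatin protein 33 kb from the proximal edge, measured 8.81, 7.16, 2.64 and 5.40 CPM in control neurons and 11.3 and 21.3 CPM in duplication-deletion neurons. The duplication-deletion libraries lay above all controls, at 1.43 ± 0.58 (edgeR adjusted p = 0.681), and the deletion libraries of 12.9 and 3.38 CPM spanned both.

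Mitochondrial and metabolic enzymes (8 members, with the inflammasome adaptor Pycard left out of the list as chosen) had medians of -0.30, -0.04 and -0.16 in deletion ESCs, NPCs and neurons, with 0 past the threshold. Bckdk, the kinase that switches off branched-chain amino acid breakdown, measured 16.4, 19.7, 17.2 and 19.9 CPM in control neurons, 12.1 and 18.3 CPM in deletion and 27.4 and 27.8 CPM in duplication-deletion neurons. Duplication-deletion stood above all others, at 0.58 ± 0.27 over control (edgeR adjusted p = 0.695). Gm166, a gene that overlaps Phkg2, measured 3.98, 6.69, 6.46 and 9.69 CPM in control, 7.86 and 7.88 CPM in deletion and 12.6 and 15.1 CPM in duplication-deletion neurons. Its duplication-deletion libraries were also the highest, and its deletion libraries lay within the controls. Duplication-deletion over control was 1.02 ± 0.37 (edgeR adjusted p = 0.681). With 2 duplication-deletion neuron libraries such separation was common, as the 19.0% of all genes shows.

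Membrane traffic, lysosome and signalling genes (17 members) had medians of -0.06, 0.07 and -0.15 in deletion cells and 0 past the threshold. Sbk1, a brain kinase, measured 99.3, 59.0, 106, 101 and 66.7 CPM in control and 139, 88.8 and 156 CPM in deletion NPCs, at 0.58 ± 0.27 with overlapping libraries (edgeR adjusted p = 1.0). Spns1, a lysosomal lipid transporter, measured 9.37, 3.06 and 12.8 CPM in control and 3.56, 4.11 and 5.99 CPM in deletion ESCs, which overlap. The cochaperone Bag3 ranged from 9.86 to 17.3 CPM in control and 11.3 to 26.9 CPM in duplication-deletion ESCs. The adaptor Sh2b1 had a spread of 3.41 to 12.8 CPM among the 3 ESC controls alone. Psmbeta, an entry within Sh2b1, held counts in few libraries: 116 and 25 in NPC control replicates 2 and 3, 93 and 216 in NPC deletion replicates 1 and 3, and 0 in every duplication-deletion NPC library and in all neurons. It was tested in NPCs, but no fold is given for it.

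Of the 5 leukocyte genes, Itgal (integrin alpha L) held 0 counts in every control NPC and neuron library and 1.39 to 3.23 CPM in control ESCs. Itgam and Lat were at most 0.0766 and 0.475 CPM in NPCs, against 1.35 to 3.74 and 1.86 to 4.28 CPM in ESCs, in all genotypes. Blood and immune markers summed to 8.65 to 15.7 CPM in ESCs and 0.0 to 1.43 CPM in NPCs. Il4ra, the interleukin 4 receptor, measured 1.52 to 3.58 CPM in control and 0.816 to 1.76 CPM in deletion NPCs, at -0.80 ± 0.47, and overlapped. Of the 2 serine proteases, Prss8 measured 0.183, 1.89, 0.497, 0.532 and 2.43 CPM in control and 0.0, 0.179 and 0.188 CPM in duplication-deletion NPCs, overlapping slightly at these low counts (edgeR adjusted p = 1.0).

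The low-count genes named by rule overlapped between groups. The histone demethylase relative Jmjd5, the farthest proximal gene, measured 1.91, 0.321 and 2.08 CPM in control ESCs and 2.23, 3.10 and 1.53 CPM in duplication-deletion ESCs, at 0.71 ± 0.65. The entry AK079777 measured 1.89, 0.729 and 1.04 CPM in control ESCs and 2.41, 1.72 and 4.12 CPM in deletion ESCs, at 1.21 ± 0.62. AK134249, an entry that overlaps Gtf3c1, reached at most 0.758 CPM in control and 0.982 CPM in deletion neurons, at 1.19 ± 1.45.

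Differentiation moved many of the flanking genes. Between control ESCs and control NPCs, 17 of 79 tested genes rose and 13 fell by edgeR (38.0% called, beside 41.5% of all genes, 21.0% higher and 20.5% lower). Between control NPCs and control neurons 10 rose and 13 fell (29.1%, beside 43.7% of all genes, 23.2% higher and 20.5% lower). DESeq2 called 32 and 24 (beside 45.8% and 47.2% of all genes), and edgeR with the replicate number as a block 26 and 20 (beside 35.9% and 38.8%).

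From ESC to NPC the zinc finger genes Zfp629 and Zfp768 rose. Zfp629 measured 3.06 to 6.38 CPM in control ESCs and 45.9 to 79.2 CPM in control NPCs (3.63 ± 0.31, edgeR adjusted p = 1.33e-06), and the overlapping entry mKIAA0326 rose at 4.33 ± 0.90. Zfp768 measured 1.05 to 3.95 and 21.3 to 27.9 CPM (3.31 ± 0.37). Of the 10 zinc finger genes, 3 rose and 1, Zfp764, fell. Gsg1l, an auxiliary subunit of AMPA glutamate receptors, rose from 0.0 to 0.291 CPM in control ESCs to 1.66 to 17.5 CPM in control NPCs (6.17 ± 0.97), and Sbk1 and Tgfb1i1 rose by 2.17 ± 0.36 and 2.98 ± 0.52. Of the metabolic enzymes (without Pycard) 4 of 7 fell and 0 rose, beside 20.5% of all genes lower and 21.0% higher, among them Sephs2 at -1.86 ± 0.19 and Dctpp1 at -1.04 ± 0.28. The inflammasome adaptor Pycard fell at -4.65 ± 0.91, Nupr1 at -4.16 ± 0.69 and Prss8 at -3.13 ± 0.86.

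From NPC to neuron the phosphoinositide phosphatase Inpp5f rose at 1.47 ± 0.26 (edgeR adjusted p = 0.0005), Sbk1 at 1.31 ± 0.30 and Nupr1 at 2.59 ± 0.63. In the membrane traffic and signalling group 5 of 17 rose and 0 fell, beside 23.2% of all genes higher and 20.5% lower. Dctpp1 fell at -2.46 ± 0.29, Bckdk at -1.29 ± 0.19 and Eif3c at -1.25 ± 0.20. The entry 1700008J07Rik, which overlaps Srcap, fell at -1.82 ± 0.47, and 1110007A13Rik, which overlaps Mcmbp, at -2.17 ± 0.58.

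**Figure D5:**
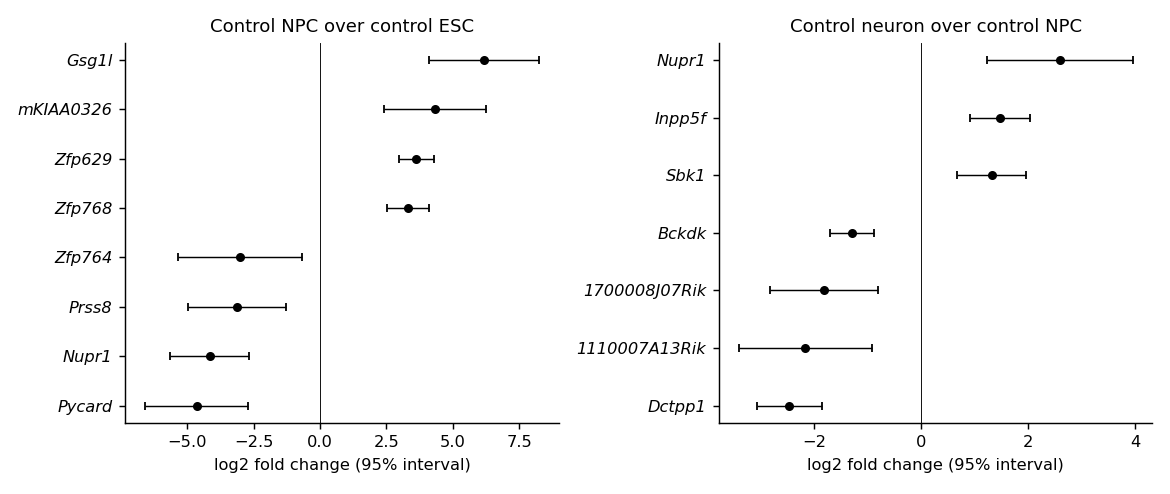
Log2 fold change with its 95% interval between control stages for flanking genes named by the rule on the largest changes past the threshold. Values run from -4.65 (Pycard) to 6.17 (Gsg1l) between ESC and NPC and from -2.46 (Dctpp1) to 2.59 (Nupr1) between NPC and neuron.

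Whether a genotype effect differed between stages was tested for all 83 genes in a fit of all 28 libraries. In each of the 6 contrasts edgeR called 0 flanking genes, beside 0.005% of all genes in 3 contrasts and 0.0% in the others. Unadjusted, 3, 1 and 1 genes had p under 0.05 for deletion (NPC against ESC, neuron against ESC, neuron against NPC; 3.61%, 1.2% and 1.2%), beside 3.22%, 2.85% and 3.1% of all genes. For duplication-deletion they were 3, 2 and 5 (3.61%, 2.41% and 6.02%), beside 2.67%, 3.83% and 5.02%. DESeq2 called 0 flanking genes in these contrasts, beside 0.04% to 0.175% of all genes.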

How the data were processed

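RNA from 28 libraries in 9 groups was sequenced with a stranded total RNA kit, per the labels' protocols; 6 Hi-C samples were not analysed here. Per the submitters' processing notes the tools were STAR 2.6.0c, RSEM 1.3.0 and DESeq2 1.22.2 on mm9. The authors deposited expected counts per gene and a comparison table, filtered on TPM at a cut not given in the sources used here, with log2 fold changes and their errors, p-values, a test score and a mean normalized signal (baseMean). Whether counting used strand is not given in the sources used here, so overlapping and antisense genes cannot be told apart.

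Expected counts were rounded, and 92 of 29968 entries, spike-ins, were left out. EdgeR 4.0.16 (R 4.3.3) with TMM scaling, its low-count filter by group and the robust quasi-likelihood test was fitted per stage over 3 genotypes, over the 3 control stages, and over all 28 libraries for differences between stages, without a replicate block, with Benjamini-Hochberg adjustment over all genes at 0.05, two-sided. SEs were taken from the fold change and F, with 95% intervals. All 33 replicate pairs of a group differed beyond sampling noise (smallest chi-square per degree of freedom 66.9). Labels gave the groups, and the title and genotype were used for NPC duplication-deletion, whose description names the deletion only. Replicate numbers shared by ESC groups appeared to pair the libraries. All 9 correlations of same-numbered deviations lay between 0.178 and 0.59, beside at most 0.193 for other pairs. The blocked ESC fit changed no member's call. In data simulated at these depths, edgeR recovered 61%, 73% and 34% of the larger (log2 of 2) and 1%, 7% and 0% of the smaller (log2 of 1) changes (deletion against control, 15734, 16345 and 17428 genes, in ESCs, NPCs and neurons). Only genes above a cut on expected counts were changed, so recovery at lower counts was not measured.

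Alternatives were DESeq2 1.42.0, limma 3.58.1 (voom), no low-count filter, a replicate block, fits of only the groups compared, each library left out, no shallow libraries, and flanks of 1 or 4 Mb. Members and lists were chosen with earlier results of these data known. Genes were named with values if they passed in a genotype comparison (these fits or the authors' table), had 1 of the 2 smallest p-values of their flank in one, were among the 4 nearest tested genes of a side, were among the 4 largest changes in a direction between control stages past the threshold with a mean of at least 5 CPM, or differed between stages; lists add examples. Some genes that the rule names are not reported here. Promoter sequences are from RefSeq on GRCm38.p6, in which 57 of the 83 genes matched an entry.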

Additional observations from a re-analysis of the deposited data

Results flagged for a closer look

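Of 68 group values checked, 8 held a library farther from the others than Dixon's 95% critical value; chance flags about 1 in 20 groups. In control neurons, replicate 1 measured 8.85 CPM of 9130019O22Rik and 0.0 CPM of Pycard, and replicate 2 measured 22.9 CPM of Tgfb1i1 and 8.54 CPM of mKIAA0326. In control NPCs, replicate 2 stood apart at 14.7 CPM of Atxn2l, 2.27 CPM of Zfp764 and 2.01 CPM of Psmbeta, and replicate 4 at 5.39 CPM of Cln3.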

How the results depend on the processing

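EdgeR called 0 flanking genes in the 9 genotype comparisons under each alternative run with edgeR or limma. DESeq2 called 1 in deletion over control NPCs, 1 in duplication-deletion over control NPCs, 1 in deletion against duplication-deletion NPCs and 1 in deletion against duplication-deletion neurons. Of the named genes, 4 values became calls (those of DESeq2), 6 lost one (Zfp764 in control NPCs over ESCs, above) and 0 reversed.

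The median over flanking genes moved with single libraries. It ran from -0.50 to 0.12 in deletion over control neurons and from -0.46 to 0.13 in deletion against duplication-deletion neurons. For the difference of the deletion effect it ran from 0.019 to 0.34 (NPC minus ESC), -0.37 to 0.35 (neuron minus ESC) and -0.67 to 0.013 (neuron minus NPC). For that of duplication-deletion it ran from -0.10 to 0.29 (neuron minus ESC) and -0.10 to 0.19 (neuron minus NPC). Where 1 neuron library of a group was left, it was assumed to vary like the other groups. The mean of the library medians in duplication-deletion neurons was 97.3% with genes of at least 1 CPM and 97.1% with at least 20 CPM, against 100.8%; the cause was not tested.

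With the replicate number as a block, 0 flanking genes were called in the genotype comparisons, with a median of -0.06 in deletion ESCs, and 26 and 20 between control stages, against 30 and 23 without it. In NPCs same-numbered libraries correlated at -0.0235 to 0.433, beside at most 0.196 for other pairs. In neurons they correlated at 0.0703 to 0.483, beside at most 0.387 for other pairs. The numbers may therefore pair some of these libraries, less evenly than in ESCs. The few libraries, 2 in each mutant neuron group, limit what was detectable.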
